A study of Mus musculus with 27 samples.

Results

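Dlx1, Dlx2, Dlx5 and Dlx6 are 4 of the 30735 genes counted in 27 RNA-seq libraries of mouse retina and brain. They were taken by gene symbol, and the counts of their 14 annotated transcripts were summed per gene. The study marked retinal ganglion cells with alkaline phosphatase (AP) placed at the Brn3a (Pou4f1) or Brn3b (Pou4f2) locus of C57Bl/6 mice. AP-bearing cells were pulled from dissociated retina with antibody-coated magnetic beads (called RGC here), and the unbound supernatant was kept (SN). All retinal mice carried an AP allele. KO animals had a null allele opposite it (Brn3b AP/KO or Brn3a AP/KO) and HET animals a wild-type allele (AP/WT), so no retinal group had 2 intact copies of the marked gene. At postnatal day 3 (P3) there were 4 RGC groups, Brn3b KO, Brn3b HET, Brn3a KO and Brn3a HET, and at embryonic day 15 (E15) the Brn3b KO and Brn3b HET groups alone. Each RGC group held 2 libraries. Each of the same 6 combinations gave 1 SN library, and SN was pooled over genotypes within an age (4 libraries at P3, 2 at E15). The brain libraries came from wild-type P3 mice: 3 of the superior colliculus (SC), 3 of the lateral geniculate nucleus (LGN), 1 of the pretectal area and 2 of the brain sections that remained after dissection.

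Dlx genes encode homeodomain transcription factors, the vertebrate relatives of fly Distal-less. In mouse they lie in convergent gene pairs, Dlx1 with Dlx2 and Dlx5 with Dlx6. In the embryonic forebrain Dlx1 and Dlx2 act in progenitors of GABA neurons ahead of Dlx5 and Dlx6, and promote genes such as Gad1 and Gad2. In mouse retina Dlx1 and Dlx2 are made by progenitors and by ganglion, amacrine and horizontal cells, and mice that lack both lose ganglion cells. Brn3b is a ganglion cell factor that has itself been reported as a target of DLX1 and DLX2.

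All 4 genes share the homeobox, the stretch that encodes the DNA-binding homeodomain. It is shown because near-identical sequence would let reads of 1 gene be counted for another. Each line gives the 180 bases of the homeobox 5′ to 3′ from the main coding transcript (GENCODE annotation of GRCm38), with capitals at the bases that are the same in all 4 genes.
Dlx1: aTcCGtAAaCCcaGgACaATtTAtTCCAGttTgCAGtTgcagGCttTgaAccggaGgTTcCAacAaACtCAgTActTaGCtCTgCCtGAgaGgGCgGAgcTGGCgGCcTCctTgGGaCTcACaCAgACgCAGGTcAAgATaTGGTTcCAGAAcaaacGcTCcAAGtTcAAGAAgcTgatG
Dlx2: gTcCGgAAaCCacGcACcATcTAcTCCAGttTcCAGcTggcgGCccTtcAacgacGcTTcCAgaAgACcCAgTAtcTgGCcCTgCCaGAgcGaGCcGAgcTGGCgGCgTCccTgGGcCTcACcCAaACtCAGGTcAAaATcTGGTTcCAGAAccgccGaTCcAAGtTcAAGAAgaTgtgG
Dlx5: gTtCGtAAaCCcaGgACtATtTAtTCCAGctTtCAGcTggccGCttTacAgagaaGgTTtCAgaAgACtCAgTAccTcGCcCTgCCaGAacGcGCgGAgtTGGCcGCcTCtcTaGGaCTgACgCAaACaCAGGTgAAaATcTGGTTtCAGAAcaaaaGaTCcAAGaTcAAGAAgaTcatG
Dlx6: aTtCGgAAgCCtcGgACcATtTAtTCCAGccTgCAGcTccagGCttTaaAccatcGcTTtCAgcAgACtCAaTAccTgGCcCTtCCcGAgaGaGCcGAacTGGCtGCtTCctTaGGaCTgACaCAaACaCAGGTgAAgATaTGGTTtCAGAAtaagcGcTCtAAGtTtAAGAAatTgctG
The capitals cover 106 of the 180 bases (58.9%), and identity between any pair of the genes was 71.1% to 76.7%. The longest run of bases shared by any pair of their transcripts was 12 to 23 bases, shorter than the reads (76 bases in retina, 125 bases in brain). In each gene the homeobox was split in the same way, with 132 bases in exon 2 and 48 bases in exon 3 of 3 exons.

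The genes sit at 2 places in GRCm38. Dlx1 (ENSMUSG00000041911) lies at chr2:71528113-71533981 on the plus strand with 6 annotated transcripts. Dlx2 (ENSMUSG00000023391) lies at chr2:71543408-71546754 on the minus strand with 2. Dlx6 (ENSMUSG00000029754) lies at chr6:6863334-6868568 on the plus strand with 4, and Dlx5 (ENSMUSG00000029755) at chr6:6877805-6882085 on the minus strand with 2. Antisense transcripts are annotated at both places in mouse and were not analysed here. The libraries mark strand, but use of strand in counting is not given in the sources used here, so reads of a Dlx gene and of an antisense partner that overlaps it cannot be told apart.

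Retinal totals ran from 28905675 to 37394655 estimated counts per library, and brain totals from 10122962 to 13769685. A level of 3 counts corresponded to 0.0791 to 0.105 counts-per-million (CPM) in the retina and 0.221 to 0.300 CPM in the brain. The targeted genes went with the titles of all RGC libraries: Pou4f2 was at 63.1 and 65.7 CPM in Brn3b KO and at 224 and 325 CPM in Brn3b HET RGC at E15, at 18.6 and 21.0 CPM in Brn3b KO and at 190 and 289 CPM in Brn3b HET RGC at P3, and Pou4f1 was at 11.0 and 16.7 CPM in Brn3a KO and at 444 and 486 CPM in Brn3a HET RGC. Brn3a KO replicate 2, whose genotype entry names Brn3b against its title, had 11.0 CPM of Pou4f1 and 268 CPM of Pou4f2. Bead-bound cells were not ganglion cells alone. The 8 microglia genes summed to 524 to 2990 CPM in RGC libraries, against 7.88 to 22.3 CPM in SN libraries. RNA of whole fractions was measured, so fewer cells of a type and less RNA per cell cannot be told apart.

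Dlx1 and Dlx2 were present in all 18 retinal libraries, and Dlx5 and Dlx6 hardly at all. Dlx1 ranged from 0.305 to 282 CPM and Dlx2 from 0.251 to 117 CPM. Dlx5 was at 0 in 11 of the 18 libraries, passed the level of 3 counts in 3, and reached 0.175 CPM. Dlx6 was at 0 in 8, passed that level in 3, and reached 0.55 CPM in Brn3b KO RGC replicate 2 at E15, whose fellow replicate had 0.0951 CPM. Neither Dlx5 nor Dlx6 passed the filter on low counts in the retina, so differences of theirs were not detectable at this depth and the tests there concern Dlx1 and Dlx2, 2 of the 4 genes.

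**Figure D1:**
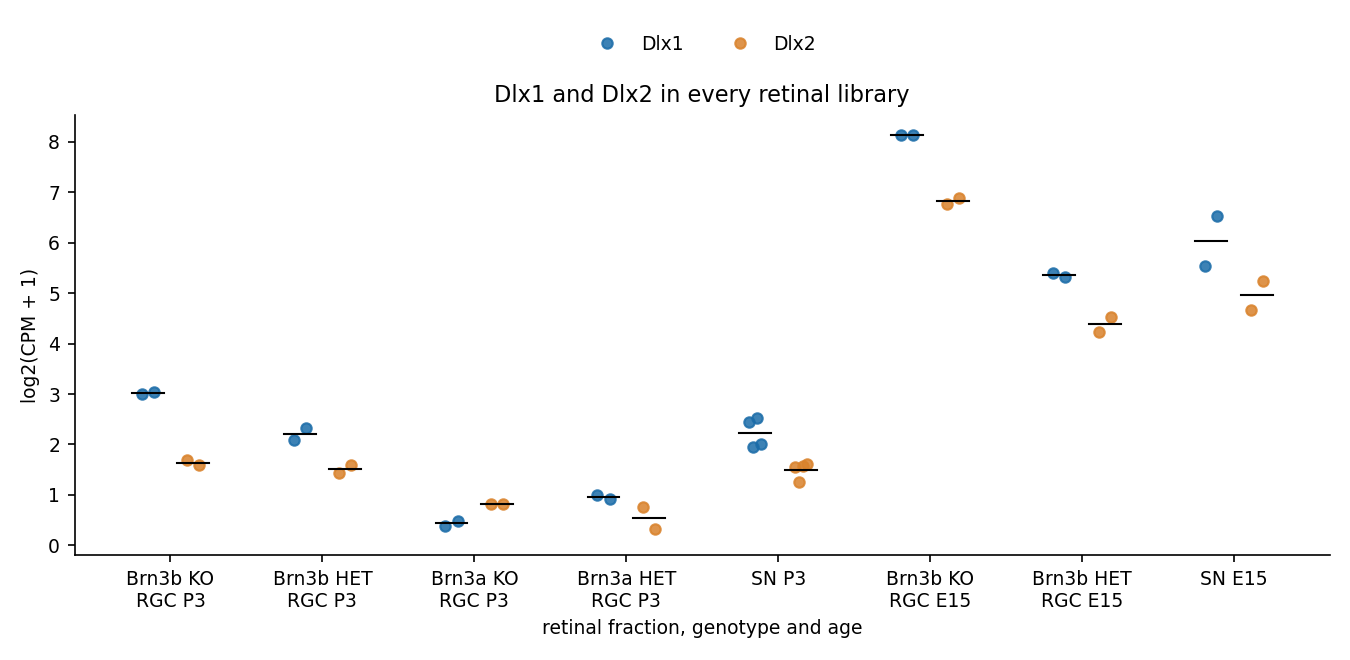
Levels of Dlx1 and Dlx2 in each retinal library, as log2(CPM + 1) on the vertical axis, by fraction, genotype and age. Points are libraries and black lines are group means; both genes stand highest in Brn3b KO RGC at E15, and all P3 groups lie below all E15 groups.

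In E15 retina, loss of Brn3b went with the highest Dlx1 and Dlx2 levels of the study. Dlx1 was at 280 and 282 CPM in Brn3b KO RGC, against 41.0 and 39.0 CPM in Brn3b HET RGC. Dlx2 was at 108 and 117 CPM in Brn3b KO RGC, against 17.8 and 22.1 CPM in Brn3b HET RGC. For both genes the KO libraries lay far above the HET libraries with no overlap. The share of all genes whose libraries separate is not given, here or below, so statements on overlap are descriptions. Dlx1 rose by 2.81 ± 0.14 on the log2 scale (SE, edgeR quasi-likelihood adjusted p = 2.22e-05), a 7.02-fold difference, and Dlx2 by 2.49 ± 0.28 (adjusted p = 0.00301), a 5.63-fold difference. Both of the 2 members tested were called higher, where 0.666% of the 16673 genes tested were. Each stayed called in all 10 alternatives, with Dlx1 between 1.92 and 2.88 and Dlx2 between 2.38 and 2.67.

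The same cells also exceeded the unbound cells of their age. SN at E15 held 91.8 CPM of Dlx1 in the Brn3b KO and 45.6 CPM in the Brn3b HET library, and 36.7 CPM of Dlx2 in the Brn3b KO and 24.5 CPM in the Brn3b HET library. Against these, Brn3b KO RGC were higher by 2.03 ± 0.28 for Dlx1 (edgeR adjusted p = 0.000331) and by 1.88 ± 0.28 for Dlx2 (adjusted p = 0.000656), 2 of 2 tested, where 12.3% of 16954 genes were called higher. In Brn3b HET RGC the estimates against SN were -0.78 ± 0.28 for Dlx1 (edgeR adjusted p = 0.0733) and -0.62 ± 0.28 for Dlx2 (adjusted p = 0.146). There 0 of 2 were called, where 13.2% of genes were; 2 of 2 had an unadjusted p under 0.05 and DESeq2 called 1, Dlx1. Without the HET SN library Dlx1 was called lower in Brn3b HET RGC (-1.19, adjusted p = 0.0095). SN pools a KO and a HET library at this age, and the KO library had the higher value of both genes.

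The rise of Dlx1 at E15 was spread unevenly over its annotated transcripts. Dlx1-001, the full coding transcript, took 23.0% and 25.9% of the estimated Dlx1 counts in Brn3b KO RGC, against 57.4% and 37.6% in Brn3b HET RGC. Dlx1-003, annotated as a retained intron, took 63.4% and 60.5% in Brn3b KO RGC, against 38.7% and 57.5% in Brn3b HET RGC. Dlx1-002, annotated for nonsense-mediated decay, took 9.99% and 11.5% in Brn3b KO RGC, and at most 1.08% in the other groups with at least 30 counts. In the brain Dlx1-001 took 86.2% to 99.9% in LGN and remaining brain. Shares between overlapping transcripts are estimates of the counting model and not separate measurements. Counted from protein-coding transcripts alone, an alternative added after seeing the data, Dlx1 was still higher in Brn3b KO RGC (1.92 ± 0.37, edgeR adjusted p = 0.0332) but by a smaller factor, and it was no longer called against SN (1.12 ± 0.45, adjusted p = 0.0821). Dlx2 lay nearly all in its coding transcript Dlx2-001 (95.4% to 100% where at least 30 counts were held) and kept its estimates (2.49 and 1.88).

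**Figure D2:**
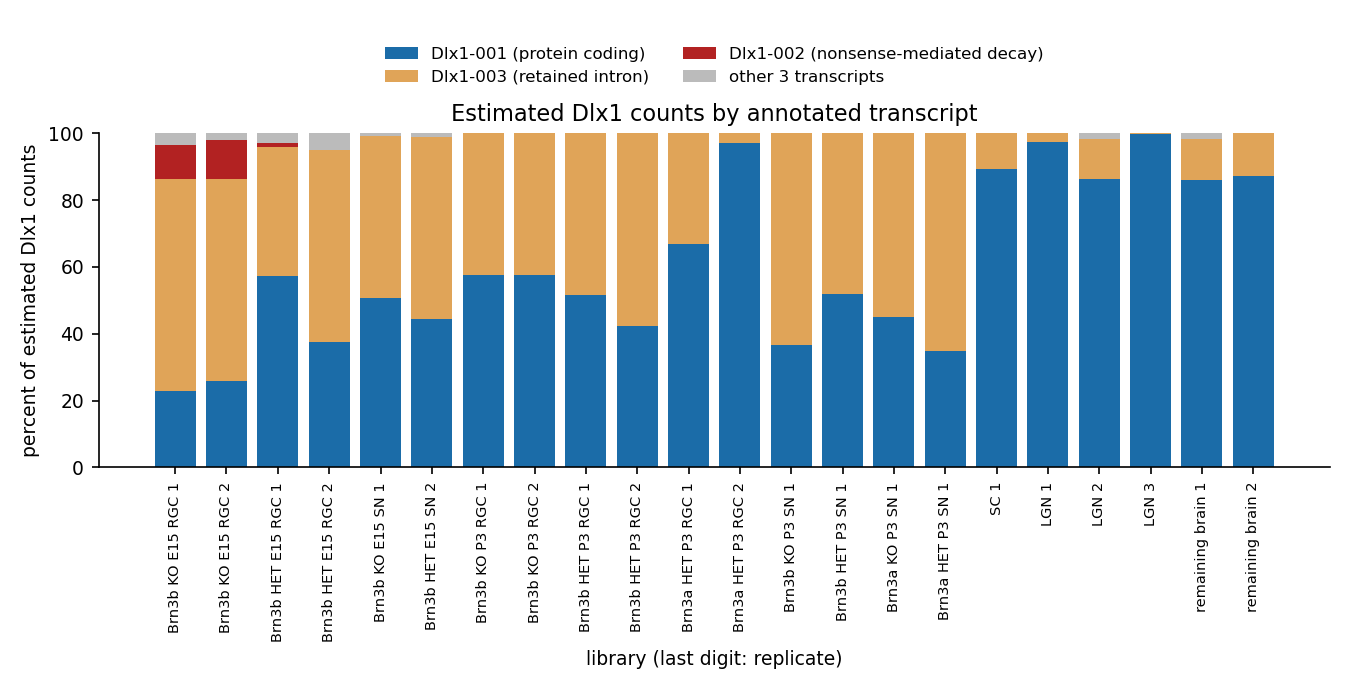
Share of each library's estimated Dlx1 counts held by each annotated transcript, in percent, for the libraries with at least 30 Dlx1 counts. Bars are single libraries. The transcript annotated for nonsense-mediated decay is visible in the 2 Brn3b KO RGC libraries at E15 at 9.99% and 11.5%. The coding transcript Dlx1-001 dominates the brain libraries, which differ from the retinal ones in read length and layout.

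Amacrine genes rose beside Dlx1 and Dlx2 in the E15 Brn3b KO cells, 8 of 15. Of 14 ganglion cell genes 6 fell, among them Pou4f2, the gene deleted. None of the amacrine genes was called lower, and the list had a median log2 fold change of 1.71 against -0.03 over all genes tested. Th, the rate-limiting enzyme of dopamine synthesis, was at 281 and 253 CPM in Brn3b KO RGC, against 12.5 and 10.9 CPM in Brn3b HET RGC (4.51 ± 0.20, edgeR adjusted p = 1.67e-05). Slc32a1, which loads GABA and glycine into vesicles, was at 45.4 and 43.3 CPM in Brn3b KO RGC, against 1.64 and 1.29 CPM in Brn3b HET RGC (4.92 ± 0.35, adjusted p = 0.000419). Both genes were also above their SN level at E15, which was 0.530 to 28.6 CPM for Th and 4.88 to 20.6 CPM for Slc32a1. Not all amacrine genes did so: against SN 6 of 15 were higher in Brn3b KO RGC and 4 lower, among them Prdm13 at 17.9 and 16.4 CPM in Brn3b KO RGC, against 68.1 and 83.8 CPM in SN. Gad2, a GABA-synthesising enzyme and reported DLX target, was at 302 and 313 CPM in Brn3b KO RGC, against 99.6 and 100 CPM in Brn3b HET RGC (1.62 ± 0.15, adjusted p = 0.00182). Nr4a2, a nuclear receptor of amacrine and dopamine neurons, rose by 2.48 ± 0.41 (adjusted p = 0.0175). The summed level of the 15 amacrine genes was 2030 to 2240 CPM in Brn3b KO RGC, 982 to 1030 CPM in Brn3b HET RGC and 1210 to 1340 CPM in SN.

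Of the 6 genes of the GABA phenotype, 2 rose at E15, Slc32a1 and Gad2, which are also amacrine list genes, and 4 did not pass. Of 8 genes reported as DLX targets in mouse forebrain or retina, 2 rose, Gad2 and the semaphorin receptor gene Nrp2 (1.41 ± 0.21, edgeR adjusted p = 0.0115). Pou4f2, the gene deleted in these mice, was lower, and 5 did not pass. The list's median was 0.08, against -0.03 over all genes. Of 16 tested genes of the forebrain GABA lineage, only Sp8 was called (2.38 ± 0.46, adjusted p = 0.0398); it encodes a zinc finger factor of interneuron lineages, and the list's median was 0.24. Of 14 ganglion cell genes 6 fell and 0 rose (median -1.45), with Sncg at -3.85 ± 0.46 (adjusted p = 0.00428) and Ebf1 at -3.24 ± 0.41 (adjusted p = 0.0052). Pou4f2 was among the 6, and its fall follows from genotype. Of 7 horizontal cell genes Calb1 alone was called (2.47 ± 0.44, adjusted p = 0.0234). None of 10 progenitor and Müller genes, 8 photoreceptor genes or 8 microglia genes was called in this comparison. The summed progenitor level was 1110 to 1950 CPM in Brn3b KO RGC and 1170 to 3060 CPM in Brn3b HET RGC, and the microglia level 524 to 581 CPM in Brn3b KO RGC and 553 to 748 CPM in Brn3b HET RGC. The part of a changed mix of bead-bound cells in the Dlx values was not tested.

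**Figure D3:**
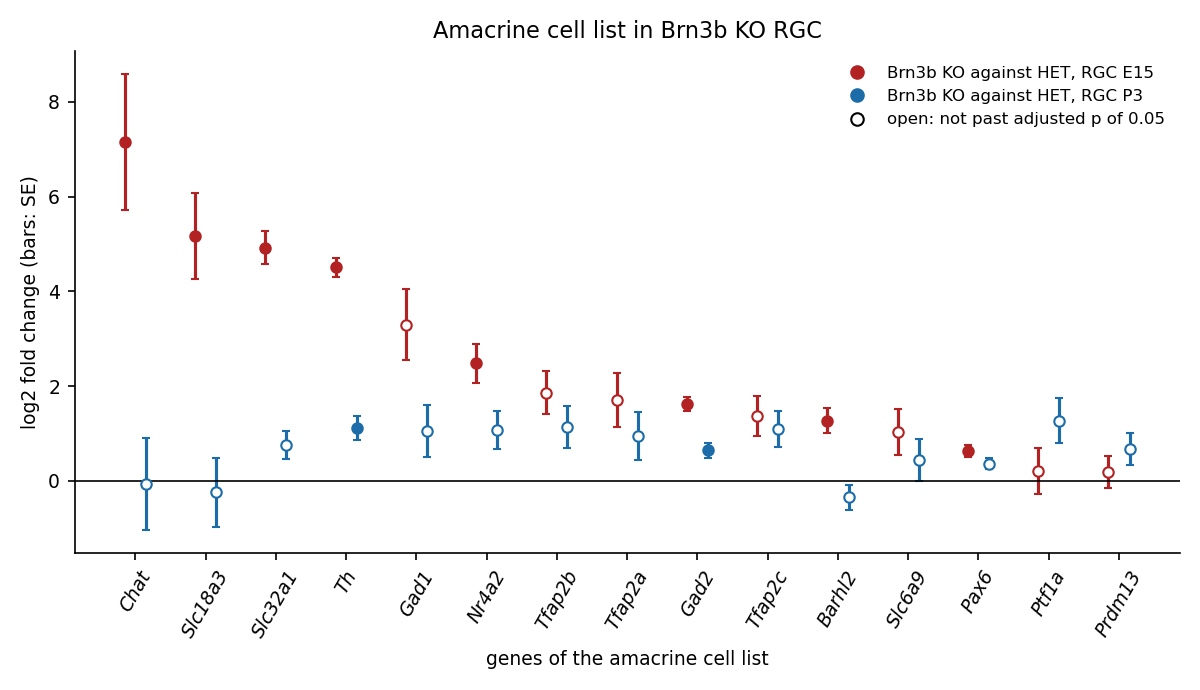
Log2 fold change of Brn3b KO against HET RGC for the 15 genes of the amacrine list, at E15 (red) and P3 (blue), ordered by the E15 value. Bars are standard errors and open points did not pass an adjusted p of 0.05; 8 of 15 passed at E15 and 2 of 15 at P3.

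At P3 Dlx1 passed the test with a smaller difference, and Dlx2 did not pass. Dlx1 was at 6.95 and 7.20 CPM in Brn3b KO RGC, against 3.27 and 4.03 CPM in Brn3b HET RGC. Dlx2 was at 2.22 and 2.00 CPM in Brn3b KO RGC, against 1.70 and 2.00 CPM in Brn3b HET RGC. The groups did not overlap for Dlx1 and met for Dlx2. Dlx1 was higher by 0.97 ± 0.14 (edgeR adjusted p = 0.0192), and Dlx2 had an estimate of 0.20 ± 0.30 (adjusted p = 0.755). Thus 1 of 2 members was called higher, where 0.264% of genes were. The Dlx1 call was lost without Brn3b KO replicate 1 (adjusted p = 0.124), Brn3b KO replicate 2 (0.099) or Brn3b HET replicate 2 (0.157), with only the compared groups fitted (0.17), and with protein-coding transcripts alone (1.28, adjusted p = 0.116).

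Other genes moved beside Dlx1 at P3. Of 14 ganglion cell genes 11 fell (median -1.76, against 0.01 over all genes), among them Pou4f2, the gene deleted. Of 15 amacrine genes 2 rose, Th and Gad2. Gad2 rose by 0.64 ± 0.15 (edgeR adjusted p = 0.0493) and was the DLX target and the GABA phenotype gene that did so. Of 16 tested forebrain GABA lineage genes Six3 and Nr2f2 rose. Of 8 microglia genes 7 fell, and their summed level was 760 to 1020 CPM in Brn3b KO RGC against 1640 to 1970 CPM in Brn3b HET RGC. The amacrine sum was 1360 to 1520 CPM in Brn3b KO RGC against 888 to 902 CPM in Brn3b HET RGC, and the progenitor sum 881 to 2000 CPM in Brn3b KO RGC against 579 to 853 CPM in Brn3b HET RGC. Their part in the Dlx1 value was not tested.

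The Brn3b KO effect differed between ages for Dlx1. P3 minus E15, it changed by -1.84 ± 0.20 (edgeR interaction, adjusted p = 0.0102), 1 of 2 members, where 0.192% of genes were called. The Dlx2 estimate was -2.29 ± 0.40 (adjusted p = 0.0774), and DESeq2 called it. The Dlx1 call was lost without Brn3b KO P3 replicate 1 (adjusted p = 0.0511), Brn3b HET P3 replicate 2 (0.0681), Brn3b HET E15 replicate 2 (0.051), Brn3b KO E15 replicate 1 (0.0662) or Brn3b KO E15 replicate 2 (0.0538). Counted from protein-coding transcripts alone, the difference was -0.64 ± 0.53 (adjusted p = 0.67).

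Both genes were far lower at P3 than at E15 in each kind of cell. In Brn3b KO RGC, Dlx1 fell by 5.29 and Dlx2 by 5.71 on the log2 scale (edgeR adjusted p = 2.26e-07 and 1.49e-05), to means of 7.07 and 2.11 CPM at P3 against 281 and 113 CPM at E15. In Brn3b HET RGC, Dlx1 fell by 3.45 and Dlx2 by 3.42 (adjusted p = 5.81e-06 and 0.000133), to 3.65 and 1.85 CPM at P3 against 40.0 and 20.0 CPM at E15. In SN, Dlx1 fell by 4.19 and Dlx2 by 4.06 (adjusted p = 4.90e-07 and 5.84e-07). SN held 2.86 to 4.72 CPM of Dlx1 at P3 against 45.6 to 91.8 CPM at E15, and 1.39 to 2.06 CPM of Dlx2 at P3 against 24.5 to 36.7 CPM at E15. Both members tested fell in the 3 comparisons, where 11.1% of genes fell in Brn3b KO RGC, 12.3% in Brn3b HET RGC and 17.5% in SN. From protein-coding transcripts alone the Dlx1 change in Brn3b KO RGC was -4.13. Age and developmental stage of the sampled cells move together in this design.

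At P3 the Brn3a RGC libraries held the lowest Dlx1 and Dlx2 levels of the retina. Dlx1 was at 0.305 and 0.397 CPM in Brn3a KO RGC, against 1.00 and 0.894 CPM in Brn3a HET RGC. These are 9.77 and 13.3 estimated counts in Brn3a KO RGC and 32.6 and 31.9 in Brn3a HET RGC. Dlx2 was at 0.762 and 0.764 CPM in Brn3a KO RGC, against 0.700 and 0.251 CPM in Brn3a HET RGC. The KO libraries lay below the HET libraries for Dlx1 and above them for Dlx2. Neither gene was called: Dlx1 had an estimate of -1.42 ± 0.22 (edgeR adjusted p = 0.225) and Dlx2 of 0.70 ± 0.38 (adjusted p = 1.0). Of 16673 genes, 0.0180% were called in this comparison, with 0 of the 2 members. Dlx1 had an unadjusted p of 8.09e-05, and DESeq2 called it at an adjusted p of 0.0448. In every one of the 14 lists, no gene but Pou4f1, the gene deleted, was called here.

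Brn3b cells exceeded Brn3a cells of the same age for both genes. In KO cells Dlx1 was higher in Brn3b than in Brn3a by 4.32 ± 0.19 (edgeR adjusted p = 6.60e-06) and Dlx2 by 1.47 ± 0.33 (adjusted p = 0.0079), where 16.7% of genes were called higher. In HET cells Dlx1 was higher in Brn3b than in Brn3a by 1.94 ± 0.17 (adjusted p = 0.00128) and Dlx2 by 1.97 ± 0.35 (adjusted p = 0.0253), where 2.03% were. The Dlx2 call in HET cells was lost without Brn3a HET replicate 2 (adjusted p = 0.124), Brn3b HET replicate 1 (0.129) or Brn3b HET replicate 2 (0.077), and with only the compared groups fitted (0.0787). That in KO cells was lost without Brn3a KO replicate 1 (0.0514) and with only the compared groups fitted (0.0807). With protein-coding transcripts alone the Dlx1 estimate in HET cells was 1.13 (adjusted p = 0.127). The KO effect on Dlx1 at P3 differed between the genes: it was 0.97 in Brn3b and -1.42 in Brn3a, a signed difference of 2.38 ± 0.26 (edgeR interaction, adjusted p = 0.0354), called in 1 of 2 members, where 0.0120% of genes were called. Only 3 of 14 alternatives kept that call. It was lost without any of the 8 P3 RGC libraries (adjusted p 0.0513 to 0.255), with the replicate block (0.0789), with only the compared groups fitted (0.116) and from protein-coding transcripts alone (0.125). For Dlx2 the interaction estimate was -0.50 ± 0.48 (adjusted p = 0.863).

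Markers of several cell types differed in these contrasts too. In KO cells 13 of 14 ganglion cell genes were lower in Brn3b than in Brn3a and 1 higher (median -2.49), and 8 of 8 microglia genes were lower. The ganglion list holds Pou4f1 and Pou4f2, each deleted in 1 of these KO groups, so their directions follow from genotype. Pou4f1 was at 61.7 and 88.2 CPM in Brn3b KO RGC, against 16.7 and 11.0 CPM in Brn3a KO RGC. Pou4f2 was at 21.0 and 18.6 CPM in Brn3b KO RGC, against 391 and 268 CPM in Brn3a KO RGC. The ganglion sum was 868 to 1170 CPM in Brn3b KO RGC against 5050 to 6760 CPM in Brn3a KO RGC, and the microglia sum 760 to 1020 CPM in Brn3b KO RGC against 2420 to 2990 CPM in Brn3a KO RGC. In KO cells 10 of 15 amacrine genes were higher in Brn3b than in Brn3a and 0 lower (median 1.75), with Prdm13, Tfap2c and Slc32a1 among those higher. There 9 of 10 progenitor genes were higher too. In HET cells 5 of 15 amacrine genes were higher and 0 lower, with Gad2 higher by 1.02 ± 0.15 (edgeR adjusted p = 0.0136). The amacrine sum was 1360 to 1520 CPM in Brn3b KO RGC against 572 to 708 CPM in Brn3a KO RGC, and 888 to 902 CPM in Brn3b HET RGC against 596 to 616 CPM in Brn3a HET RGC. The progenitor sum was 881 to 2000 CPM in Brn3b KO RGC against 327 to 449 CPM in Brn3a KO RGC, and 579 to 853 CPM in Brn3b HET RGC against 342 to 343 CPM in Brn3a HET RGC. The photoreceptor sum was 2990 to 4380 CPM in Brn3b KO RGC against 384 to 1740 CPM in Brn3a KO RGC. The part of these other cells in the Dlx differences was not tested.

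Against unbound cells of P3 retina, both genes were lower in Brn3a cells. Brn3a KO RGC were lower than SN by 3.41 ± 0.36 for Dlx1 (a log2 fold change of -3.41, edgeR adjusted p = 4.47e-06) and had -1.26 ± 0.30 for Dlx2 (adjusted p = 0.00308), where 26.6% of genes were called lower. Brn3a HET RGC had -1.98 ± 0.31 for Dlx1 (adjusted p = 9.49e-05) and -1.95 ± 0.33 for Dlx2 (adjusted p = 0.000172), where 27.7% were. With protein-coding transcripts alone Dlx1 in Brn3a HET RGC was at -1.04 (adjusted p = 0.0732). In both Brn3a KO and Brn3a HET RGC 11 of 15 amacrine genes and 10 of 10 progenitor genes were lower than in SN, and 8 of 8 microglia genes higher. The amacrine sum was 572 to 708 CPM in Brn3a KO RGC and 596 to 616 CPM in Brn3a HET RGC, against 1480 to 1770 CPM in SN, and their part in the Dlx values was not tested. In Brn3b KO RGC Dlx1 was higher than in SN (0.91 ± 0.25, adjusted p = 0.0391), 1 of 2 members, where 5.23% of genes were higher, and Dlx2 had an estimate of 0.20 ± 0.26 (adjusted p = 0.696). This Dlx1 call was lost with protein-coding transcripts alone (adjusted p = 0.0601), with only the compared groups fitted (0.0907), and without Brn3b KO RGC replicate 1 (0.179) or replicate 2 (0.134), or the SN library of Brn3b KO (0.0926), Brn3a KO (0.103) or Brn3a HET (0.0505). In Brn3b HET RGC the estimates were -0.04 ± 0.26 for Dlx1 (adjusted p = 0.918) and 0.01 ± 0.27 for Dlx2 (adjusted p = 0.981), with 0 of 2 called where 33.2% of genes were, 0 with an unadjusted p under 0.05, and 0 called by DESeq2.

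**Figure D4:**
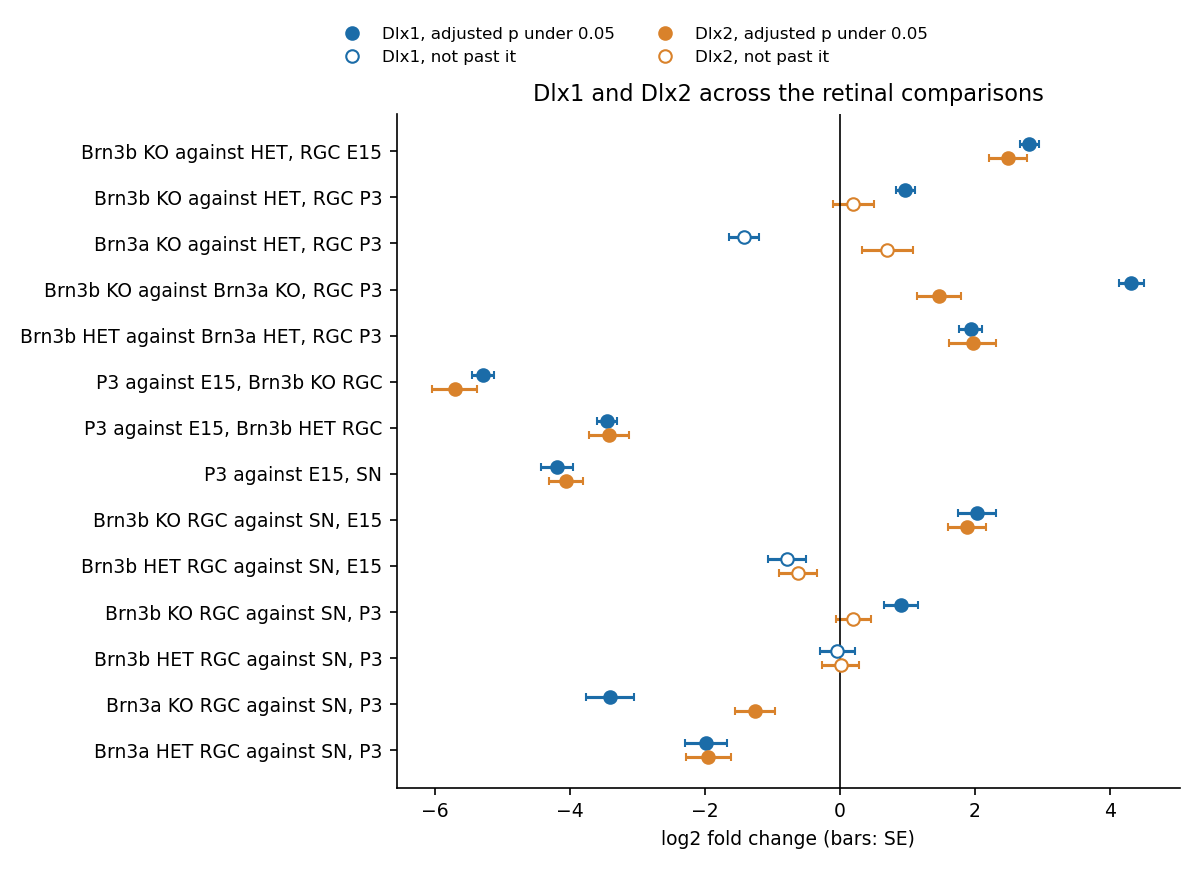
Log2 fold changes of Dlx1 and Dlx2 in 14 retinal comparisons, with standard errors; the group named before "against" is the numerator. Filled points passed an adjusted p of 0.05 in edgeR; the comparisons of P3 with E15 stand furthest to the left, and Brn3b KO against HET at E15 lies at 2.81 for Dlx1 and 2.49 for Dlx2.

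Levels were also set on a scale per transcript length, in TPM, the counterpart of CPM after division by length, so that the genes can be compared. For Dlx1 the order in the retina was Brn3b KO RGC at E15 (193 ± 2.94 TPM, SD), SN at E15 (31.1 ± 15.9), Brn3b HET RGC at E15 (20.5 ± 0.574), Brn3b KO RGC at P3 (3.62 ± 0.0877), SN at P3 (2.04 ± 0.472), Brn3b HET RGC at P3 (1.85 ± 0.375), Brn3a HET RGC at P3 (0.44 ± 0.0453) and Brn3a KO RGC at P3 (0.171 ± 0.0247), with n = 2 except 4 for SN at P3. Neighbours within their spread were SN and Brn3b HET RGC at either age. For Dlx2 the first 3 places were the same, at 76.8 ± 3.76, 20.6 ± 7.29 and 13.4 ± 2.22 TPM, and the P3 groups of Brn3b KO RGC, SN and Brn3b HET RGC lay together at 1.75 ± 0.0318, 1.47 ± 0.217 and 1.41 ± 0.214 TPM. Last came Brn3a KO RGC at 0.552 ± 0.0106 TPM and Brn3a HET RGC at 0.349 ± 0.225 TPM, within the spread of the HET libraries. Dlx1 exceeded Dlx2 per length in 22 of the 27 libraries. The ratio of their TPM was 2.64 and 2.41 in Brn3b KO RGC, against 1.70 and 1.40 in Brn3b HET RGC, at E15. These TPM sum all annotated transcripts of a gene, so the ratio is not one of coding RNA. Coding Dlx1-001 took 23.0% to 25.9% of the estimated Dlx1 counts in Brn3b KO RGC at E15. In Brn3b HET RGC at E15 it took 37.6% to 57.4%. The ratio for coding transcripts alone was not computed. In the retina the ratio over all transcripts lay under 1 in the 2 Brn3a KO RGC libraries (0.283 and 0.337) and in Brn3a HET RGC replicate 1 (0.929). The fellow replicate of the latter had 2.15. With 1 mean transcript length per gene, Dlx1 exceeded Dlx2 in 23 of the 27 libraries, and Brn3a HET RGC replicate 1 turned round, at 0.858 TPM of Dlx1 and 0.678 TPM of Dlx2.

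The genes most like Dlx1 and Dlx2 across the 18 retinal libraries were each other, with a Pearson correlation of log2(CPM + 1) of 0.984. Stra6 (0.967), Gadd45a (0.964) and Sepn1 (0.963) were also among the 5 genes most like Dlx1, and Sepn1 (0.974), Rassf4 (0.966) and St7 (0.959) among the 5 most like Dlx2, out of the 11466 genes that averaged 5 CPM or more. These correlations describe libraries that share age, fraction and genotype. Of the other family members, Dlx3 was at 0.122 to 4.14 CPM in the retina. It was higher in Brn3b KO than in Brn3a KO RGC at P3 (2.70 ± 0.75, edgeR adjusted p = 0.0205) and had 0.28 ± 0.71 in Brn3b KO against HET RGC at E15 (adjusted p = 0.939).

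The sequence before their starts was read for short motifs. The 250 bases before the RefSeq start of Dlx2, chr2:71546755-71547004 on the minus strand of GRCm38.p6, are printed 5′ to 3′, with capitals at the CANNTG matches, the element bound by basic helix-loop-helix factors.
Dlx2: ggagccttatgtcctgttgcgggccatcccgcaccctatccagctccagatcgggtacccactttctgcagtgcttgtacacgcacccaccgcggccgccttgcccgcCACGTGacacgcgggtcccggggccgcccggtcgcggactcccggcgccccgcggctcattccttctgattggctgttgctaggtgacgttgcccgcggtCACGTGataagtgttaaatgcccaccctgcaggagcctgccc
Windows of the 250 bases before each RefSeq start were searched on both strands. CANNTG occurred 2 times in the Dlx2 window and 0 times in that of Dlx1, and 66.2% of 32851 windows held it. TAATTA, a core bound by many homeodomain proteins, and ATTAAT, which is part of the Brn3 recognition element and can overlap TAATTA, were in neither window. They were held by 4.8% and 4.4% of all windows. No window of Dlx5 or Dlx6 was read.

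In P3 brain all 4 genes were present in the LGN and in the remaining brain, and nearly absent from the superior colliculus and pretectal area. Dlx1 was at 5.26, 0.386 and 0 CPM in SC replicates 1, 2 and 3. LGN held 39.9, 35.1 and 35.8 CPM, and the remaining brain 46.4 and 30.5 CPM. Dlx2 was at 1.03, 0 and 0.165 CPM in the same SC libraries. LGN held 6.71, 4.13 and 7.39 CPM, and the remaining brain 7.37 and 8.79 CPM. SC libraries lay below all LGN and remaining-brain libraries for both genes, and SC replicate 1 stood above the other 2. Dlx5, which acts after Dlx1 and Dlx2 in the forebrain, was at 0.431, 0 and 0 CPM in SC, where LGN held 3.60, 3.32 and 2.38 CPM and the remaining brain 2.58 and 3.19 CPM. Dlx6, its neighbour, was at 1.64, 0 and 0 CPM in SC, where LGN held 8.86, 11.8 and 13.9 CPM and the remaining brain 3.64 and 4.65 CPM. LGN and remaining brain did not overlap for Dlx6. They overlapped for the other 3 genes, for Dlx2 only through the highest LGN library. The single pretectal library had no Dlx1 or Dlx5 counts, 0.2 CPM of Dlx2 and 0.0999 CPM of Dlx6, all under the level of 3 counts; it has no replicate and was not tested.

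**Figure D5:**
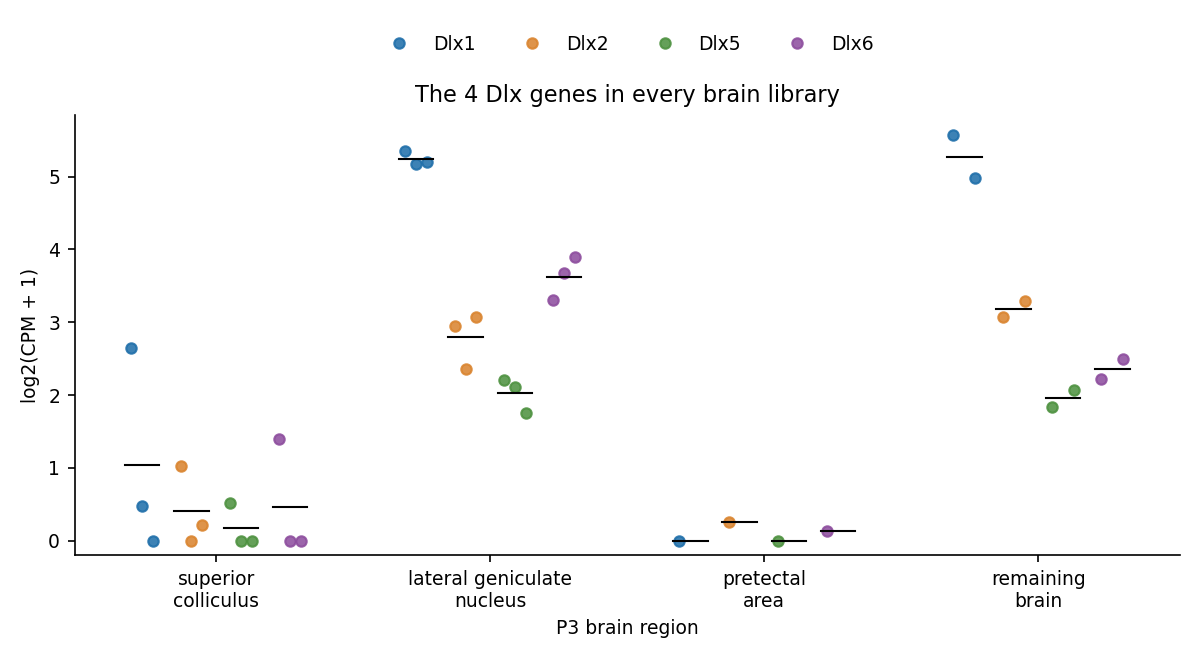
Levels of the 4 Dlx genes in each P3 brain library, as log2(CPM + 1) on the vertical axis, by region. Points are libraries and black lines are group means; SC replicate 1 is the highest SC point for each gene, and LGN and remaining brain stand above SC for all 4 genes.

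All 4 genes were lower in SC than in LGN, by -4.28 ± 0.79 for Dlx1, -3.86 ± 0.69 for Dlx2, -4.31 ± 0.80 for Dlx5 and -4.35 ± 0.85 for Dlx6 (log2 fold change ± SE, edgeR adjusted p = 0.00834, 0.0072, 0.00857 and 0.0107). These 4 of 4 stand against 5.78% of 15288 genes called lower. SC replicate 1 held most of the SC counts of these genes. Without it all 4 were still called lower (adjusted p = 9.61e-05, 0.001, 0.00159 and 0.000185 in the same order), and the estimates moved to -7.61 for Dlx1 and -5.94 for Dlx2. With that library left out Dlx5 and Dlx6 are at 0 in SC, and set against 3 counts in a library they were at least 10.7-fold and 39.8-fold lower in SC than in LGN.

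Against the remaining brain 3 of 4 genes were lower in SC, where 3.75% of genes were. Dlx1 had -4.33 ± 0.83 (edgeR adjusted p = 0.0142), Dlx2 -4.27 ± 0.72 (adjusted p = 0.00813) and Dlx5 -4.20 ± 0.85 (adjusted p = 0.0183), while Dlx6 had -2.88 ± 0.92 (adjusted p = 0.104). Without SC replicate 1 all 4 were called, Dlx1 at -7.66, Dlx2 at -6.35 and Dlx6 at an adjusted p of 0.00133. Without SC replicate 2 the calls of Dlx1 (adjusted p = 0.0581) and Dlx5 (0.061) were lost, and without remaining-brain replicate 2 that of Dlx5 (0.0828). DESeq2 called 2 of 4. Between LGN and the remaining brain 0 of 4 were called by edgeR, where 10.9% of genes were, 0 had an unadjusted p under 0.05 and DESeq2 called 0. Dlx6 had 1.47 ± 0.79 there (adjusted p = 0.27) and was called only where LGN and remaining brain were fitted without the other regions (adjusted p = 0.02).

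No gene of the GABA phenotype list was called lower in SC than in LGN. Gad1, which makes GABA, was at 542, 541 and 489 CPM in SC, against 259, 196 and 273 CPM in LGN, and was higher in SC (1.11 ± 0.13, edgeR adjusted p = 0.000802). Gad2, which also makes GABA, was at 151, 122 and 160 CPM in SC, against 240, 185 and 179 CPM in LGN. Its estimate was -0.48 ± 0.18 (edgeR adjusted p = 0.125), so it leaned lower in SC without a call. Of 6 GABA phenotype genes 1 was higher and 0 lower in SC than in LGN. Of 8 reported DLX targets, 3 were higher in SC (Pou4f2, Nrp2 and Gad1) and 1 lower. Of 19 tested forebrain GABA lineage genes 3 were higher in SC (among them Maf and Etv1) and 6 lower (among them Nr2f1 and Prox1). Of 6 tested midbrain GABA genes 4 were higher in SC and 0 lower, with Tal1, a factor of midbrain GABA neurons, higher by 2.01 ± 0.21 (adjusted p = 0.000388). Of 9 prethalamic genes 6 were lower in SC, among them Ecel1 (-1.25 ± 0.16, adjusted p = 0.00132), and 2 higher, among them Meis2 (2.19 ± 0.25, adjusted p = 0.000589). Of 8 thalamic genes 4 were lower and 1 higher.

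Between LGN and remaining brain, Dlx1, Dlx2 and Dlx5 had estimates of -0.06 ± 0.70, -0.41 ± 0.59 and 0.10 ± 0.65 and were not called. Standard errors of this size do not exclude a difference. Regional genes differed between LGN and remaining brain. All 8 cortical excitatory genes were lower in LGN, and 4 of 10 forebrain regional genes were lower and 0 higher. Ecel1, a prethalamic gene, was higher in LGN (1.36 ± 0.19, edgeR adjusted p = 0.00191). Of 19 forebrain GABA lineage genes 2 were higher and 5 lower. Among those lower was Lhx6, a factor of cortical interneurons (-4.46 ± 0.42, adjusted p = 0.000214). SC replicate 1 stood above the other SC libraries in some further genes and not in others. Sp9 and Isl1, chosen after their values were seen, were at 15.5 and 2.93 CPM there, against 0 and at most 0.165 CPM in the other SC libraries and 102 to 115 and 5.38 to 18.6 CPM in LGN. The summed thalamic genes were at 973 CPM in that library, between the 818 and 1080 CPM of the other SC libraries, against 1660 to 1950 CPM in LGN. The summed forebrain regional genes were at 52.5 to 62.0 CPM over SC, 61.1 to 71.3 CPM in LGN and 408 to 439 CPM in the remaining brain, and the summed prethalamic genes at 226 to 258 CPM in SC, 163 to 252 CPM in LGN and 219 to 303 CPM in the remaining brain. Meis2 alone made up 160 to 191 CPM of the prethalamic sum in SC. The part of LGN or nearby tissue in the SC replicate 1 values was not tested.

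Per length the order in the brain was alike for LGN and remaining brain at the top of each gene. Dlx1 was at 1.04 ± 1.54 TPM in SC (SD, n = 3), against 19.2 ± 1.25 TPM in LGN (n = 3) and 22.0 ± 8.49 TPM in the remaining brain (n = 2). Dlx2 was at 0.355 ± 0.504 TPM in SC, against 5.09 ± 1.47 TPM in LGN and 7.12 ± 0.49 TPM in the remaining brain. For Dlx5 the means were 0.204 ± 0.353 TPM in SC, 4.55 ± 1.02 TPM in LGN and 4.43 ± 0.417 TPM in the remaining brain. Dlx6 was at 0.62 ± 1.07 TPM in SC, 18.3 ± 1.83 TPM in LGN and 6.41 ± 2.97 TPM in the remaining brain. The distance between genes depended on the length used. With 1 mean transcript length per gene the LGN means were 33.3 TPM for Dlx1 and 17.1 TPM for Dlx6, where Dlx2 had 6.24 and Dlx5 3.57 TPM, so Dlx1 and Dlx6 exceeded Dlx2 and Dlx5 in LGN on both scales. In the remaining brain Dlx1 had the highest mean of the 4 on both scales (36.6 TPM with the mean length). The difference between the genes was not tested.

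Across the 9 brain libraries the 4 genes followed each other, with Pearson correlations of log2(CPM + 1) of 0.895 to 0.974. Rhou was among the 5 genes most like Dlx1 (0.982), Dlx2 (0.988) and Dlx5 (0.981). Usp43 (0.974 and 0.986) and Lmo7 (0.989 and 0.985) were among those most like Dlx1 and Dlx5. Dlx1 was also close to Fam78b (0.98), and Dlx2 to Hrh3 (0.98) and Fam124a (0.976). Dlx6 was most like Cish (0.984), Hdc (0.983), Srd5a1 (0.981), Nrep (0.98) and Pik3r2 (0.978). These libraries come from 4 tissues, so the correlations describe differences between regions. Retinal and brain libraries were read at different lengths on different instruments and were not compared by test: Dlx1 averaged 193 TPM in Brn3b KO RGC at E15 and 22.0 TPM in the remaining brain, whereas Dlx5 reached a group mean of 0.116 TPM in the retina and 4.55 TPM in LGN.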

How the data were processed

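RNA was measured in 12 RGC and 6 SN retinal libraries and 9 brain libraries. Per the labels' protocols, the libraries were stranded mRNA-seq, single-end at 76 bases in retina and paired-end at 125 bases in brain. The authors deposited raw estimated counts for 88198 Ensembl transcripts, with each transcript's length and its deposited GC in percent, which was not used. GRCm38.p3, eXpress 1.3.1, Bowtie2 2.2.1 and Trimmomatic 0.32 are named, with no role or order, in the submitters' processing notes.

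Counts were summed per gene and rounded. Groups follow the titles. Low genes were removed by filterByExpr (minimum count 10) and libraries scaled by TMM in edgeR 4.0.16 under R 4.3.3. Its quasi-likelihood test was adjusted by Benjamini-Hochberg over all genes tested, and an adjusted p under 0.05 is a call. The RGC libraries were fitted together (16673 genes), likewise all retinal (16954) and all brain libraries (15288). CPM is counts-per-million of the TMM-scaled total. TPM divides each transcript's count by its length. Estimates are log2 fold changes with standard errors. Nothing says that libraries of a group came from separate animals, so p-values measure the spread between libraries, which may be technical. Bounds of 3 counts cover counting error only. The script was tested on simulated counts.

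The Dlx genes are taken by symbol, but this family and the gene lists were proposed with earlier results of these data known, so list counts are descriptions and carry no test. From each list, up to 4 genes with the smallest adjusted p per comparison may be named, and for each Dlx gene the 5 genes most like it; a few genes that this names are not reported here. The homeobox bases come from GENCODE transcripts and the upstream bases from RefSeq, where 2 of the 4 genes matched. The pretectal library has no replicate. Alternatives were RLE scaling, no filter, DESeq2 1.42.0, only the compared groups, a replicate block, leaving out each library, one mean transcript length per gene for TPM, and protein-coding transcripts alone, which was added after seeing the data.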

Additional observations from a re-analysis of the deposited data

Results flagged for a closer look

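The Brn3b KO effect on Dlx1 differed between ages in the test of the difference itself. P3 minus E15, it was -1.84 ± 0.20 on the log2 scale (edgeR interaction, adjusted p = 0.0102), from 0.97 at P3 and 2.81 at E15. Dlx1 was higher in Brn3b KO than in Brn3b HET in 2 of 2 libraries at each age, a description without the share of all genes that did so. Over 14 alternatives the adjusted p ran from 4.79e-11 to 0.67, and 8 of them kept the call. The share of Dlx1 counts in the transcript annotated for nonsense-mediated decay was 9.99% and 11.5% in Brn3b KO RGC at E15 and 0 in Brn3b KO RGC at P3, and its part in the difference was not tested.

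The KO effect on Dlx1 at P3 also differed between the deleted genes, Brn3b minus Brn3a, by 2.38 ± 0.26 (edgeR interaction, adjusted p = 0.0354). Dlx1 had 0.97 in Brn3b KO against HET and -1.42 in Brn3a KO against HET, where Brn3a KO libraries held 9.77 and 13.3 estimated Dlx1 counts. Over 14 alternatives the adjusted p ran from 1.09e-05 to 0.255, and 3 of them kept the call.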

How the results depend on the processing

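Of 212 counts of called Dlx genes under alternatives, 167 stayed within 1.5 times the main count and 45 did not; among single log2 fold changes 428 kept direction and side of the threshold, 42 lost the call, 7 gained it and 16 changed sign. The sign changes concern estimates that were called in no setting. Dlx1 in Brn3b HET RGC against SN at P3 became 0.03 with the replicate block, 0.08 from protein-coding transcripts, and -0.23 to 0.10 without single libraries, 0.01 among them. Dlx2 there became -0.04 without the filter and -0.03 with only the compared groups, and -0.15 to 0.12 without single libraries, -0.14 and -0.03 among them. Dlx1 in LGN against the remaining brain became 0.23 with the replicate block, 0.08 from protein-coding transcripts and -0.33 to 0.27 without single libraries, and Dlx5 there -0.04 to 0.26, -0.0 among them. The Dlx2 interaction of Brn3b minus Brn3a ran from -1.38 to 0.09 without single libraries, the last without Brn3a HET replicate 2.

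DESeq2 called 1 gene in Brn3a KO against HET (0 in edgeR), 2 in the age interaction (1 in edgeR) and 1 in Brn3b HET RGC against SN at E15 (0 in edgeR). Without the filter the age interaction had 2. With only the compared groups the count was 0 in Brn3b KO against HET at P3, in the Brn3b minus Brn3a interaction and in Brn3b KO RGC against SN at P3, and 1 in both Brn3b against Brn3a comparisons and in LGN against the remaining brain; fewer samples then set the spread. From protein-coding transcripts alone it was 0 in Brn3b KO against HET at P3, in both interactions and in Brn3b KO RGC against SN at P3, and 1 in Brn3b HET against Brn3a HET, Brn3a HET RGC against SN, and Brn3b KO RGC against SN at E15. Where not stated, the cause was not tested.

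Leaving out single libraries gave counts of 0 to 1 in Brn3b KO against HET at P3, in the age interaction, in Brn3b KO RGC against SN at P3 and in Brn3b HET RGC against SN at E15, 0 to 0 in the Brn3b minus Brn3a interaction, 1 to 2 in both Brn3b against Brn3a comparisons, and 1 to 4 in SC against the remaining brain. An arm left with 1 library was taken to vary like the other groups.

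The labels do not say what a shared replicate number marks, so no pairing was assumed. Brain numbers come from titles such as M1SC, M1LGN and M1Brain, which share an M number across regions without explaining it. Deviations of same-numbered libraries correlated at -0.116 to 0.171 in RGC and -0.023 to 0.218 in brain. Among SC and LGN the same-numbered pairs had 0.200, 0.071 and 0.218, each the highest of its SC library with any LGN library, a hint from the data and not the design. The replicate block moved 1 count, the Brn3b minus Brn3a interaction, which became 0. Depth limits Dlx5 and Dlx6 in retina, and Dlx1 in Brn3a KO RGC.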

Other observations

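Dlx4 was at most at 0.0823 CPM in SC and 0.195 CPM in LGN, against 0.444 and 1.46 CPM in the remaining brain. It was called lower in SC than in the remaining brain (-4.59 ± 1.16, edgeR adjusted p = 0.0464) and had -2.97 ± 0.97 in LGN against the remaining brain (adjusted p = 0.0823). All SC and LGN libraries were under the level of 3 counts for this gene. Remaining-brain replicates 1 and 2 held 4.55 and 16.5 estimated counts, and only the latter is over the filter's minimum count of 10. Dlx4 was thus tested only through 1 library of the group where it was high, and its call is a description.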
